A study of Homo sapiens with 18 samples.

Results

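The genes described here encode the subunits of the mitochondrial respiratory chain and of ATP synthase, in head and neck cancer cells sorted by whether they had been hypoxic in spheroids. Members were taken by symbol: the NDUF subunit genes of complex I, SDHA to SDHD, the core and small subunits of complexes III and IV, the ATP5F1, ATP5M and ATP5P genes of ATP synthase, and the 13 mRNAs of mitochondrial DNA. The symbol patterns matched 149 of 41120 rows. RefSeq classes 57 of those rows as pseudogenes, and these were set aside, which left 92 genes, 79 nuclear and 13 mitochondrial. Of the 92, 89 had enough counts to be tested: 76 nuclear and all 13 mitochondrial. NDUFV2, NDUFA7 and the read-through row ATP5MF-PTCD1 were not tested. The symbol patterns use no measured value, but they were set with earlier results of these data known.

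The cell lines compared were hypoxia-fate-mapped (hfm): FADU-hfm, from an HPV-negative hypopharyngeal carcinoma, and SCC154-hfm, from an HPV-positive oral carcinoma. All cells carried the fate-mapping construct, in which hypoxia permanently switches a red reporter (DsRed) to a green one (GFP). Spheroids of each line were dissociated with trypsin, and DsRed-positive (non-hypoxic) and GFP-positive (post-hypoxic) cells were sorted and then cultured in normoxia. RNA was profiled by 3′ mRNA sequencing in 4 non-hypoxic FADU, 5 post-hypoxic FADU, 5 non-hypoxic SCC154 and 4 post-hypoxic SCC154 libraries, the last numbered 2 to 5. With 1 line for each HPV status, HPV status and line identity cannot be told apart. The labels do not say whether replicates are separate cultures, so p-values measure the spread between these libraries, which may be technical.

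The respiratory chain passes electrons from NADH (complex I) and succinate (complex II) through complex III and cytochrome c to oxygen at complex IV, and the proton gradient this builds drives ATP synthase, also called complex V. Complexes I, III, IV and V are built from both nuclear and mitochondrial gene products, whereas complex II is wholly nuclear-encoded. The mitochondrial mRNAs are cut from long polycistronic transcripts, and many nuclear subunit genes carry binding sites for the factors NRF1 and GABP.

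Promoters of 4 nuclear subunit genes are printed because they hold the NRF1 core, in 3 genes that were lower in SCC154 and in 1 that did not pass the test between the lines. Each is the 250 bases before the RefSeq start (GRCh38.p14), 5′ to 3′ on the gene's strand, with the NRF1 core (GCATGCGC or its reverse complement GCGCATGC) and the ETS motif bound by GABP (CCGGAAGT or ACTTCCGG) in capitals. SDHD lies on the plus strand (chr11:112086623-112086872) and holds overlapping NRF1 cores on both strands and 1 ETS motif, NDUFA6 on the minus strand (chr22:42090773-42091022), ATP5MC2 on the minus strand (chr12:53676084-53676333) and NDUFS6 on the plus strand (chr5:1801157-1801406). The ATP5MC2 window precedes the start of the transcript used, which lies inside the full span of the gene.
SDHD: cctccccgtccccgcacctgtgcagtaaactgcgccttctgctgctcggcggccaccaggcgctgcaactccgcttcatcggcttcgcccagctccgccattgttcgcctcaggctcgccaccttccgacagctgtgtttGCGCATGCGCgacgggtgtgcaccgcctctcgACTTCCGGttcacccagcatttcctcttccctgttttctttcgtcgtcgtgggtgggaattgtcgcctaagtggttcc
NDUFA6: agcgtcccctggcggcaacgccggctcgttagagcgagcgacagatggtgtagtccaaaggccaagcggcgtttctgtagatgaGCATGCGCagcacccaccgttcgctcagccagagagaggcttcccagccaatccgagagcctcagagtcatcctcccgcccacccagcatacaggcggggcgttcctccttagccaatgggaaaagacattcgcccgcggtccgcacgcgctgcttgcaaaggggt
ATP5MC2: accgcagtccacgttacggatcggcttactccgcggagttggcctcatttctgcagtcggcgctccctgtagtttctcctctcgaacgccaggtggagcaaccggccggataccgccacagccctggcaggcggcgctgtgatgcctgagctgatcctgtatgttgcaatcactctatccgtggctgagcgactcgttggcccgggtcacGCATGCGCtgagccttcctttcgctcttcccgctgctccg
NDUFS6: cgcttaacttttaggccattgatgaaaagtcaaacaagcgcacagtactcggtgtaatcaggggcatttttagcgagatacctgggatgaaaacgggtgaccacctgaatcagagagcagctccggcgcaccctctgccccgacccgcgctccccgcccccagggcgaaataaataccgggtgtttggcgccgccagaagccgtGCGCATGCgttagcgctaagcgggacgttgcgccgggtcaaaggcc
SDHD, NDUFA6 and ATP5MC2 were lower in SCC154 than in FADU, and NDUFS6 did not pass in either direction. A promoter was found for 64 of the 79 nuclear members. The NRF1 core stood in 12 of these 64 windows (18.8%), against 5.09% of the 9694 promoters of tested genes. The ETS motif stood in 10 (15.6%), against 7.57%, and the YY1 motif (AAGATGGC or GCCATCTT) in 1 (1.56%), against 1.97%. Both strands were searched, and NRF1 cores on opposite strands can overlap. Among members lower in non-hypoxic SCC154, 7 of 41 windows (17.1%) held an NRF1 core, and among the other tested members 5 of 20 (25.0%) did. For the ETS motif these counts were 4 of 41 (9.76%) and 6 of 20 (30.0%). NDUFA4, whose promoter carries the RefSeq symbol COXFA4 and held neither motif, was in neither of these groups, although it was lower in SCC154. A match describes letters in a window and is not a measured binding site.

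Library totals ran from 1654719 to 2503573 counts. Levels are given in CPM, counts scaled to a common library size, with library sizes adjusted by TMM, a factor that aligns libraries on the bulk of their genes. Since 3′ counts are not divided by length, levels are compared between libraries of 1 gene and not between genes. Keratinocyte-lineage markers were present in all groups (10 of 10 tested), and none of the 8 fibroblast, 6 endothelial and 8 immune markers had enough counts to be tested. The highest of those were COL1A1 at 5.77 CPM and CDH5 at 5.15 CPM, and COL3A1, LUM, KDR, CLDN5, CD3E and MS4A1 were at 0.

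Some libraries stood apart for the subunit genes. The non-hypoxic FADU library 1 was the lowest of its group for 63 of 76 nuclear members (82.9%), against 30.5% of all tested genes. Post-hypoxic FADU library 1 was the lowest of 5 for 59 (77.6%), against 27.5%. In post-hypoxic SCC154, library 3 was the lowest for 56 (73.7%) and library 4 the highest for 54 (71.1%), against 31.2% and 30.1% of all tested genes. The SD within a group was typically 19.0% of the mean over the 89 members, with COX5A the most variable (59.3%) and ATP5PD the least (6.15%). In each of the 4 groups, the library with the lowest nuclear subunit share of counts had the highest share of MALAT1 and NEAT1, RNAs that stay in the nucleus, and the library with the highest subunit share had the lowest. In non-hypoxic FADU the MALAT1 and NEAT1 share was 1.59% in library 1 and 0.873% in library 4, and in post-hypoxic SCC154 it was 1.57% in library 3 and 0.800% in library 4. Ribosomal protein genes took 5.28% and 6.76% of counts in those FADU libraries and 4.62% and 5.80% in those SCC154 libraries. The part of these in the results was not tested. Calls between the lines and the main post-hypoxic values are given with and without the libraries that stood apart.

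Most nuclear subunit genes were lower in SCC154 than in FADU. In non-hypoxic cells, 51 of 76 tested nuclear members (67.1%) were lower and 1, SDHA, was higher, with a median log2 difference of -0.63. In post-hypoxic cells 47 (61.8%) were lower, again with SDHA alone higher, and the median was -0.57. The test was edgeR's quasi-likelihood test on all 12291 genes, with Benjamini-Hochberg adjusted p under 0.05. The lines differed at most genes: 68.9% of tested genes passed in non-hypoxic cells, 34.5% lower and 34.5% higher, with a median of -0.01. In post-hypoxic cells 69.7% passed, 34.9% lower and 34.8% higher, with a median of 0.01. Counting both genomes, 56 of 89 members passed in non-hypoxic cells (54 lower, 2 higher) and 56 in post-hypoxic cells (49 lower, 7 higher). The calls shared 45 members (80.4% of each), all in the same direction, and 22 members passed in neither. Over all tested genes, 7396 passed in both kinds of cell, of 8472 in non-hypoxic and 8569 in post-hypoxic cells. The shared part was thus no greater for the members than for all genes.

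Groups also separated without a test. Every SCC154 library was below every FADU library for 36 of 76 nuclear members in non-hypoxic cells and 31 in post-hypoxic cells, against 27.8% and 28.6% of all tested genes. Without the FADU libraries numbered 1, 59 members passed in non-hypoxic cells (58 lower, 1 higher) and 61 in post-hypoxic cells (54 lower, 7 higher). Without post-hypoxic SCC154 libraries 2 and 4, 56 passed in post-hypoxic cells (54 lower, 2 higher). That fit kept library 3, the lowest of its group for 56 of 76 nuclear members. The shares of all tested genes that passed without these libraries are not given here. These bulk libraries cannot tell a smaller number of expressing cells from less RNA per cell.

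**Figure D1:**
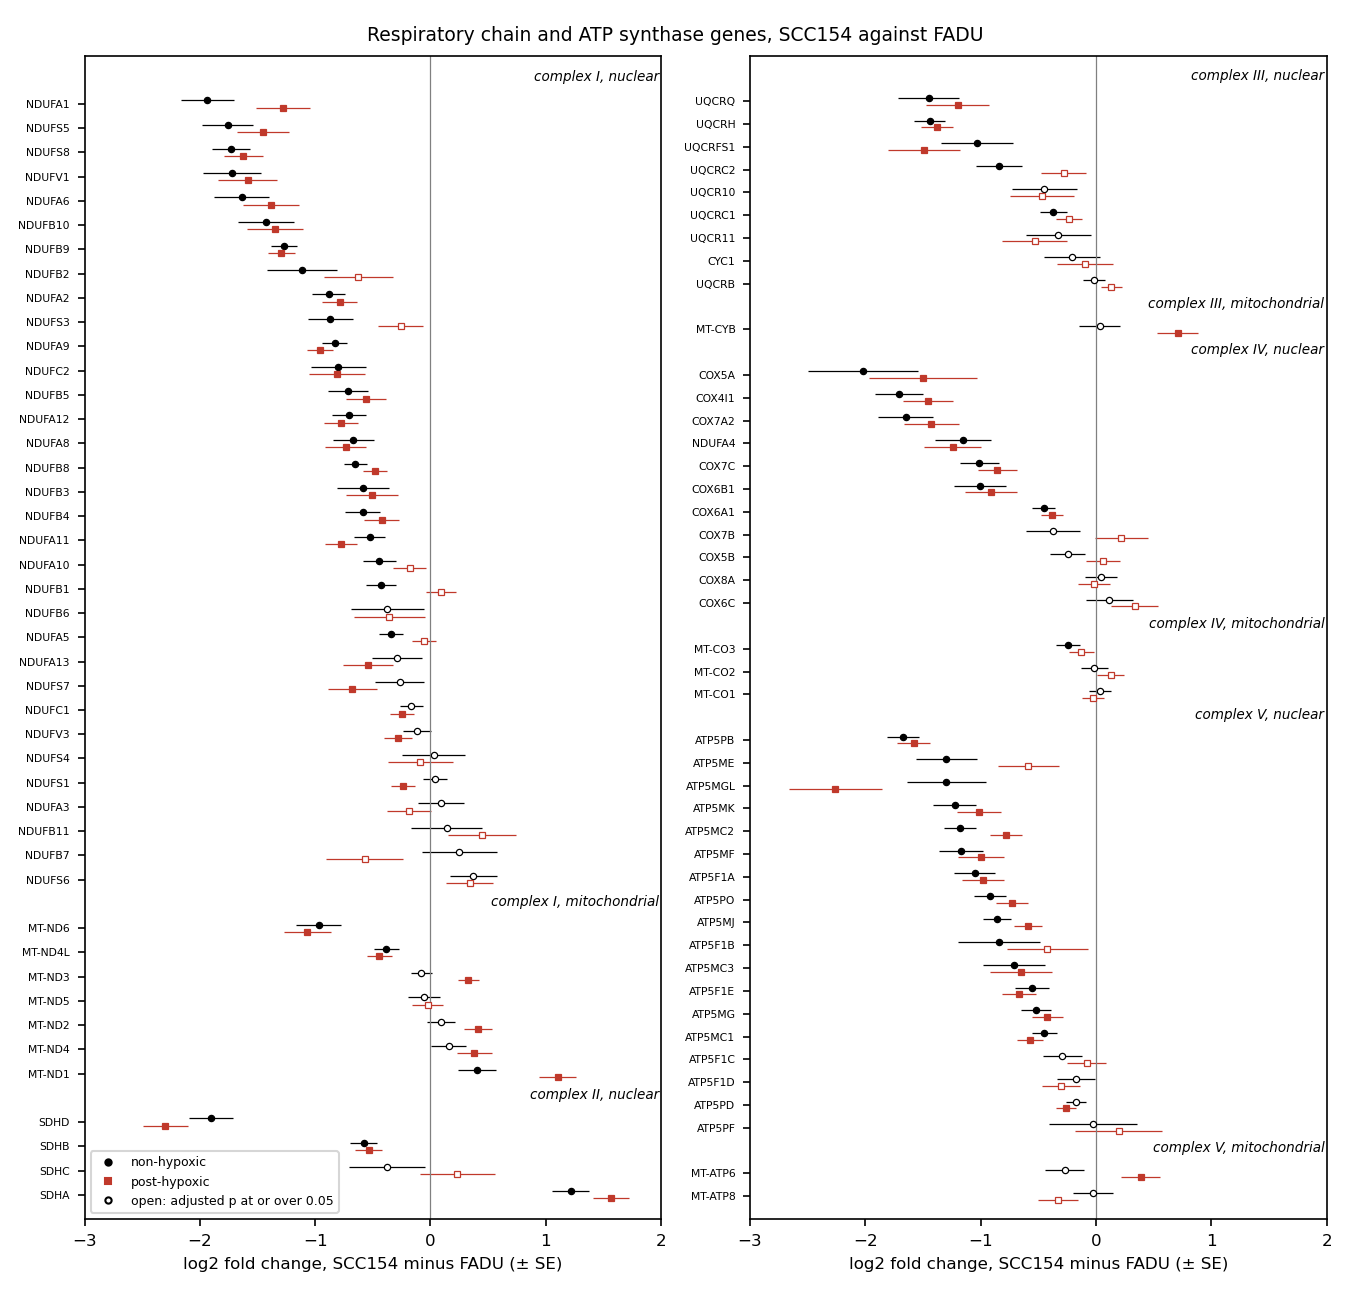
Log2 fold change of tested subunit genes, SCC154 minus FADU, grouped by complex, in non-hypoxic (black circles) and post-hypoxic (red squares) cells; bars are the standard error and open symbols have an adjusted p of 0.05 or more. Most nuclear genes of complexes I, III, IV and V lie left of 0, SDHA lies on the right at 1.22 and 1.57, and the 13 mitochondrial mRNAs spread around 0.

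Complex I, the NADH dehydrogenase, had 34 tested nuclear members, of which 23 were lower in non-hypoxic and 22 in post-hypoxic SCC154, with medians of -0.60 and -0.55, and none was higher. The lower members made up 67.65% and 64.71%, against 34.5% and 34.9% of all tested genes. NDUFS8 (chr11:68030681-68036644 in RefSeq GRCh38.p14, as for all gene positions here), which carries iron-sulfur clusters of the peripheral arm, was at 257.7, 407, 283 and 272.5 CPM in non-hypoxic FADU. In non-hypoxic SCC154 it was at 96.3, 99.5, 78.95, 101 and 82.5 CPM. The lowest FADU library was thus above the highest SCC154 library. Its log2 difference was -1.73 ± 0.16 (SE; edgeR adjusted p = 2.17e-09) in non-hypoxic cells and -1.62 ± 0.17 in post-hypoxic cells (edgeR adjusted p = 1.04e-08). NDUFV1 (chr11:67606936-67612554), the subunit that binds NADH, was at 101, 146, 199 and 249 CPM in non-hypoxic FADU and at 53.0, 42.8, 37.8, 76.4 and 51.2 CPM in non-hypoxic SCC154. The groups did not overlap, although FADU library 4 was well above library 1.

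NDUFA1 (chrX:119871832-119876662), a small membrane-arm subunit, had one of the greatest differences in complex I. It was at 375.0, 658, 610.3 and 625 CPM in non-hypoxic FADU and at 163.5, 135, 112, 193 and 136.5 CPM in non-hypoxic SCC154. In post-hypoxic SCC154 it was at 282, 126, 334 and 139.9 CPM, with libraries 2 and 4 above libraries 3 and 5. Its log2 difference was -1.93 ± 0.23 in non-hypoxic cells (edgeR adjusted p = 1.08e-07) and -1.28 ± 0.23 in post-hypoxic cells (edgeR adjusted p = 3.94e-05). NDUFS5 was lower by log2 differences of -1.76 and -1.46, NDUFA6 by -1.64 and -1.39, NDUFB10 by -1.43 and -1.35, and NDUFA9 by -0.83 and -0.96. NDUFA10, NDUFB1, NDUFB2, NDUFA5 and NDUFS3 were lower in non-hypoxic cells and did not pass in post-hypoxic cells. NDUFS1, NDUFC1, NDUFS7, NDUFA13 and NDUFV3 passed in post-hypoxic cells alone.

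NDUFS6, a zinc-binding subunit added late in complex I assembly, was one of the few with a positive difference. It was at 145, 224, 274 and 304 CPM in non-hypoxic FADU and at 385, 241, 235, 371 and 298 CPM in non-hypoxic SCC154. The groups overlapped, and the log2 differences of 0.37 ± 0.21 and 0.34 ± 0.20 did not pass (edgeR adjusted p = 0.112 and 0.141). NDUFS4, NDUFB6, NDUFB7, NDUFB11 and NDUFA3 also passed in neither kind of cell.

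Complex II, the succinate dehydrogenase, split by subunit. SDHA (chr5:218320-268746), the flavoprotein that oxidises succinate, was at 58.2, 84.1, 85.4 and 70.3 CPM in non-hypoxic FADU and at 154, 192, 142, 192 and 184 CPM in non-hypoxic SCC154. In post-hypoxic cells it was at 61.3, 65.5, 74.1, 80.5 and 62.2 CPM in FADU and at 235.5, 142.5, 262 and 174 CPM in SCC154. All SCC154 libraries were above all FADU libraries, with log2 differences of 1.22 ± 0.16 (edgeR adjusted p = 5.69e-07) and 1.57 ± 0.16 (edgeR adjusted p = 6.07e-09). Rows for near-identical SDHA copies held 61.8 and 79.2 CPM in non-hypoxic FADU and SCC154. With those rows added, the sums were 136 and 252 CPM, so the direction held.

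SDHD (chr11:112086873-112095794), a membrane anchor of complex II, went the other way. It was at 25.5, 23.0, 27.3 and 25.2 CPM in non-hypoxic FADU and at 6.88, 8.65, 5.15, 7.77 and 4.95 CPM in non-hypoxic SCC154. In post-hypoxic cells it was at 32.5, 35.7, 31.6, 27.9 and 34.1 CPM in FADU and at 8.15, 3.56, 6.53 and 7.22 CPM in SCC154. The lines did not overlap in either kind of cell, with log2 differences of -1.91 ± 0.19 (edgeR adjusted p = 7.42e-09) and -2.30 ± 0.19 (edgeR adjusted p = 3.41e-10). SDHB, the iron-sulfur subunit, was lower by -0.58 and -0.54, and the other anchor, SDHC, passed in neither (-0.37 and 0.23).

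**Figure D2:**
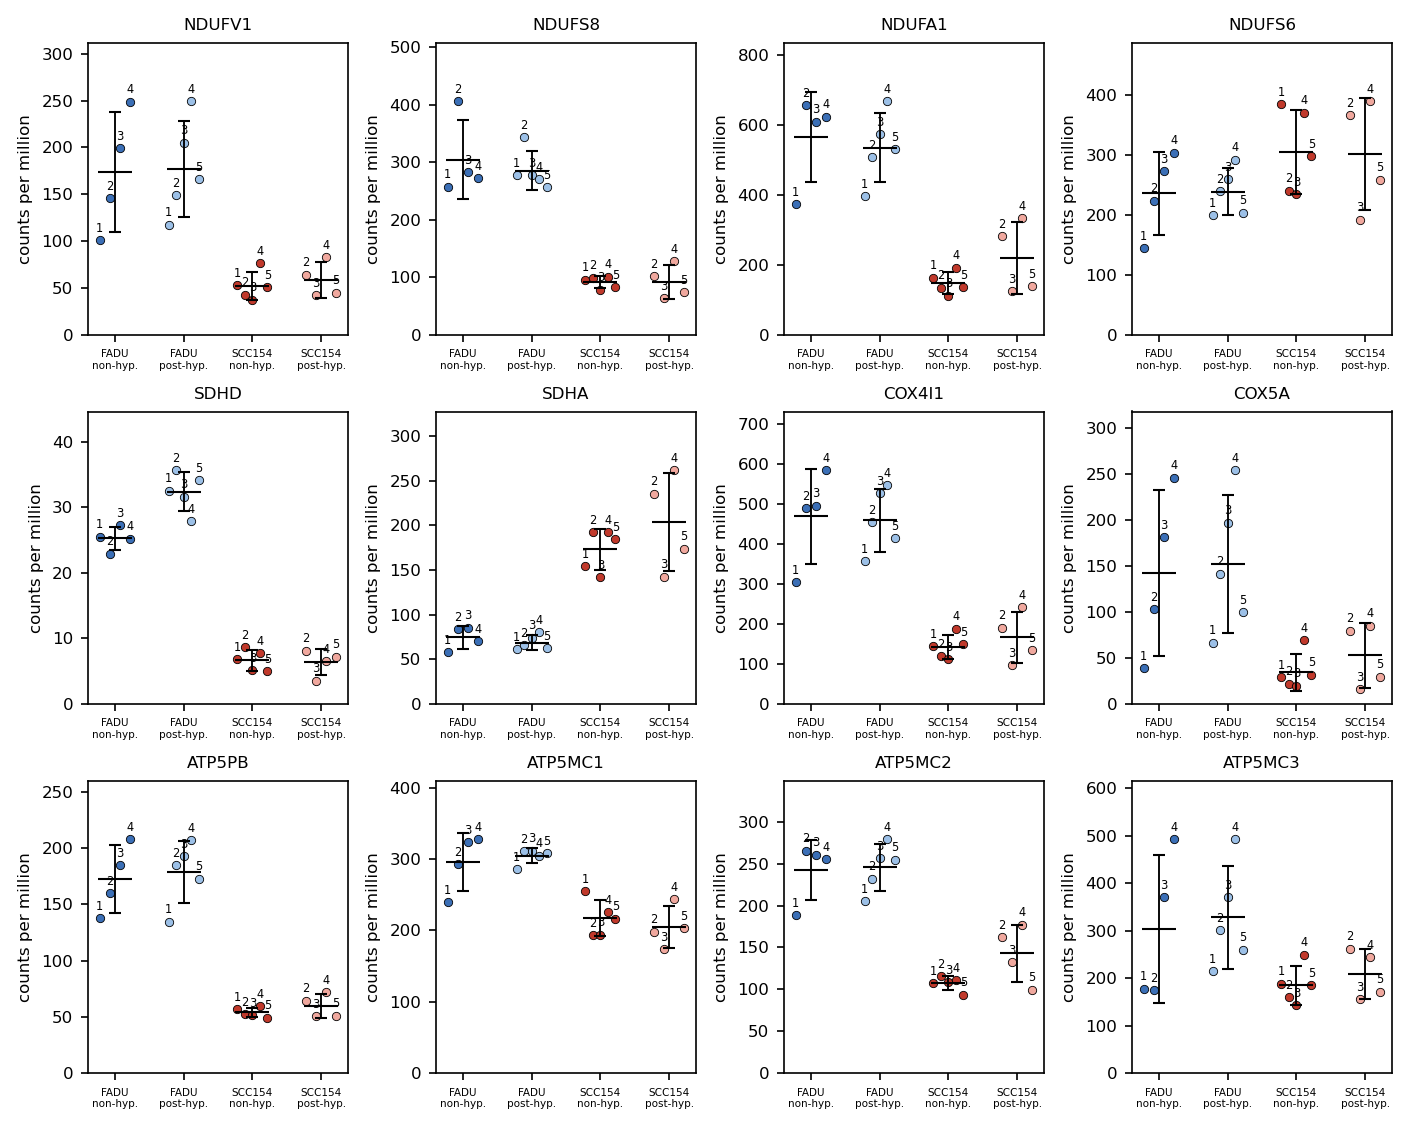
Level of 12 nuclear subunit genes in CPM in each library, with points numbered by replicate and bars giving the group mean ± SD. SDHA is higher in every SCC154 library than in any FADU library, SDHD and NDUFS8 are lower, and COX5A shows the widest spread, from 39.3 to 246 in non-hypoxic FADU.

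Complex III, the cytochrome bc1 complex, had 5 of 9 tested nuclear members lower in non-hypoxic SCC154 and 3 in post-hypoxic SCC154, with medians of -0.45 and -0.47. These were 55.6% and 33.3%, against 34.5% and 34.9% of all tested genes, so the post-hypoxic share was near the background. UQCRH, the hinge protein of the complex, was at 557, 610.5, 721 and 823 CPM in non-hypoxic FADU and at 237, 244, 212, 298 and 257 CPM in non-hypoxic SCC154. The groups were well apart, with log2 differences of -1.44 ± 0.14 in non-hypoxic cells (edgeR adjusted p = 2.05e-09) and -1.38 ± 0.14 in post-hypoxic cells. UQCRQ was lower by -1.45 and -1.20. UQCRFS1, the Rieske iron-sulfur protein, was lower by -1.03 and -1.49. In non-hypoxic cells its groups overlapped, from 18.9 to 49.9 CPM in FADU and from 13.6 to 21.2 CPM in SCC154. UQCRC1 and UQCRC2, the core proteins, passed in non-hypoxic cells alone. UQCRB (-0.02 and 0.13), CYC1, the cytochrome c1 gene (-0.21 and -0.10), UQCR10 and UQCR11 did not pass in either kind of cell.

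Complex IV, cytochrome c oxidase, had 7 of 11 tested nuclear members (63.6%) lower in each kind of cell, counting NDUFA4, which is now placed in this complex. Of all tested genes, 34.5% and 34.9% were lower. The medians of complex IV, -1.01 and -0.86, were the lowest of the 5 complexes in both kinds of cell. COX4I1 (chr16:85799695-85807068), a regulatory subunit needed early in assembly, was at 305, 491, 496 and 586 CPM in non-hypoxic FADU. In non-hypoxic SCC154 it was at 145, 119.7, 113, 188 and 149 CPM, below all of these. The log2 differences were -1.71 ± 0.21 (edgeR adjusted p = 1.49e-07) and -1.46 ± 0.21 (edgeR adjusted p = 2.13e-06). COX7A2 was lower by -1.65 and -1.43, NDUFA4 by -1.15 and -1.24, COX7C by -1.01 and -0.86, and COX6A1 by -0.45 and -0.38. COX5B, COX6C, COX7B and COX8A passed in neither.

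COX5A (chr15:74919791-74938073), another early-assembly subunit, had the greatest difference in non-hypoxic cells and the greatest spread. It was at 39.3, 103, 182 and 246 CPM in non-hypoxic FADU and at 28.97, 22.1, 20.0, 69.0 and 31.8 CPM in non-hypoxic SCC154. The groups overlapped, since SCC154 library 4 was above FADU library 1. The log2 difference was -2.02 ± 0.48 in non-hypoxic cells (edgeR adjusted p = 0.00065) and -1.50 ± 0.47 in post-hypoxic cells (edgeR adjusted p = 0.0069).

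ATP synthase had 14 of 18 tested nuclear members lower in non-hypoxic and 13 in post-hypoxic SCC154, with medians of -0.85 and -0.62. These were 77.8% and 72.2%, against 34.5% and 34.9% of all tested genes. ATP5PB (chr1:111449464-111462773), part of the peripheral stalk, was at 138, 159.9, 185 and 208 CPM in non-hypoxic FADU and at 57.0, 52.4, 51.5, 59.6 and 49.1 CPM in non-hypoxic SCC154. The SCC154 libraries were close together and far below FADU, with log2 differences of -1.68 ± 0.14 (edgeR adjusted p = 3.35e-10) and -1.58 ± 0.14 (edgeR adjusted p = 1.21e-09). ATP5F1A, the catalytic-head alpha subunit, was lower by -1.05 and -0.98. ATP5F1B, the beta subunit, was lower in non-hypoxic cells (-0.85) and did not pass in post-hypoxic cells (-0.42). ATP5MGL was lower by -1.30 and -2.26, at levels of 17.9 and 7.22 CPM in non-hypoxic FADU and SCC154. ATP5F1C, ATP5F1D and ATP5PF passed in neither.

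The proton-carrying c ring of ATP synthase is made from 1 protein that 3 genes encode, and all of these were lower in SCC154. ATP5MC2 (chr12:53665170-53681423) was at 189, 266, 261 and 255 CPM in non-hypoxic FADU and at 107.5, 115, 109, 111 and 93.6 CPM in non-hypoxic SCC154, with no overlap. Its log2 differences were -1.18 ± 0.14 and -0.78 ± 0.14 (edgeR adjusted p = 8.97e-08 and 2.96e-05). ATP5MC1 was lower by -0.45 and -0.57. ATP5MC3 was lower by -0.71 and -0.65, with overlapping groups, and lost its call with limma voom in non-hypoxic and with DESeq2 in post-hypoxic cells, without FADU library 3 or 4 or SCC154 library 3 in non-hypoxic cells and, in post-hypoxic cells, also without SCC154 library 5.

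The 13 mitochondrial mRNAs differed in both directions, with medians near 0. In non-hypoxic cells 3 were lower in SCC154 (MT-ND6, MT-ND4L and MT-CO3), 1 was higher (MT-ND1) and their median log2 difference was -0.03. In post-hypoxic cells 6 were higher (MT-ND1, MT-CYB, MT-ND2, MT-ATP6, MT-ND4 and MT-ND3), 2 were lower (MT-ND6 and MT-ND4L) and the median was 0.13. MT-CO1, MT-CO2, MT-ATP8 and MT-ND5 passed in neither, although MT-ATP8 (-0.33) passed between post-hypoxic lines with no filter on low counts or without SCC154 library 3.

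MT-ND6, the only mRNA of the light strand, was at 142, 146, 319.8 and 241 CPM in non-hypoxic FADU and at 107, 83.7, 107.5, 136 and 106 CPM in non-hypoxic SCC154. All SCC154 libraries were below all FADU libraries, with log2 differences of -0.97 ± 0.20 (edgeR adjusted p = 0.000136) and, in post-hypoxic cells, -1.07 ± 0.20 (edgeR adjusted p = 6.27e-05). The sources used here do not say whether counting used strand, and without it reads of MT-ND6 and of the transcript opposite it cannot be told apart. MT-ND4L, which shares its transcript and some bases with MT-ND4, was lower by -0.38 and -0.44. MT-CO3 was lower by -0.24 in non-hypoxic cells (edgeR adjusted p = 0.0429). It did not pass without FADU library 1 or 2 or any of SCC154 libraries 2 to 5, with adjusted p values up to 0.153, nor with DESeq2 or upper-quartile factors.

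MT-ND1, a core membrane subunit of complex I, was at 313.5, 399, 309.9 and 267 CPM in non-hypoxic FADU and at 433, 485, 397, 442 and 373 CPM in non-hypoxic SCC154. The groups overlapped slightly and the log2 difference was 0.40 ± 0.16 (edgeR adjusted p = 0.0333). Without the FADU libraries numbered 1 it was 0.39 and did not pass (edgeR adjusted p = 0.0650), and leaving out any of FADU libraries 3 and 4 and SCC154 libraries 1, 2 and 4 also ended the call. In post-hypoxic cells it was at 316, 274, 265, 262 and 286 CPM in FADU and at 702, 445, 853 and 406 CPM in SCC154. Here the groups were apart, 2.15-fold higher in SCC154 (SE 0.16 on the log2 scale; edgeR adjusted p = 1.97e-06).

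The calls of the other 5 higher mRNAs of post-hypoxic SCC154 were lost without libraries 2 and 4, which left libraries 3 and 5 alone. MT-ND3 was nonetheless above post-hypoxic FADU in every SCC154 library, at 1776, 1675, 1984 and 1570 CPM against 1253 to 1535 CPM. MT-CYB, the cytochrome b of complex III, was at 1526, 1020, 1914 and 1036 CPM in libraries 2 to 5, and at 708 to 1094 CPM in post-hypoxic FADU. MT-ATP6, the ATP synthase subunit that carries protons to the c ring, was at 1218, 799.6, 1591 and 873 CPM. MT-ATP8, whose reading frame overlaps that of MT-ATP6 on the same mRNA, was at 599, 759.8, 315 and 692 CPM. So the libraries with the most MT-ATP6 had the least MT-ATP8, and the MT-ATP6 to MT-ATP8 ratio was 2.03 and 5.05 in libraries 2 and 4 against 1.05 and 1.26 in libraries 3 and 5. A high ratio was not limited to SCC154: in non-hypoxic FADU it was 2.02 in library 2, against 0.971 to 1.13 in the others. In post-hypoxic SCC154, both mRNAs were also summed. The sum of both mRNAs varied less, at 1817, 1559, 1906 and 1565 CPM. Without libraries 2 and 4, MT-ND1 kept a log2 difference of 0.61 (edgeR adjusted p = 0.000287), and MT-CYB (0.30), MT-ND3 (0.23), MT-ND2 (0.18) and MT-ND4 (0.15) did not pass. MT-ATP6 then turned to -0.023 (edgeR adjusted p = 0.911). Leaving out post-hypoxic FADU library 3 or 4, or SCC154 library 2 or 4 alone, ended the calls of MT-ATP6 and MT-ND4, as did leaving out FADU library 2 for MT-ATP6. The MT-ATP6 call was also lost with limma voom or with only the compared groups in the fit. Mitochondrial rRNA took 1.03% and 0.696% of counts in libraries 2 and 4, against 1.47% and 1.18% in libraries 3 and 5, and its part was not tested.

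**Figure D3:**
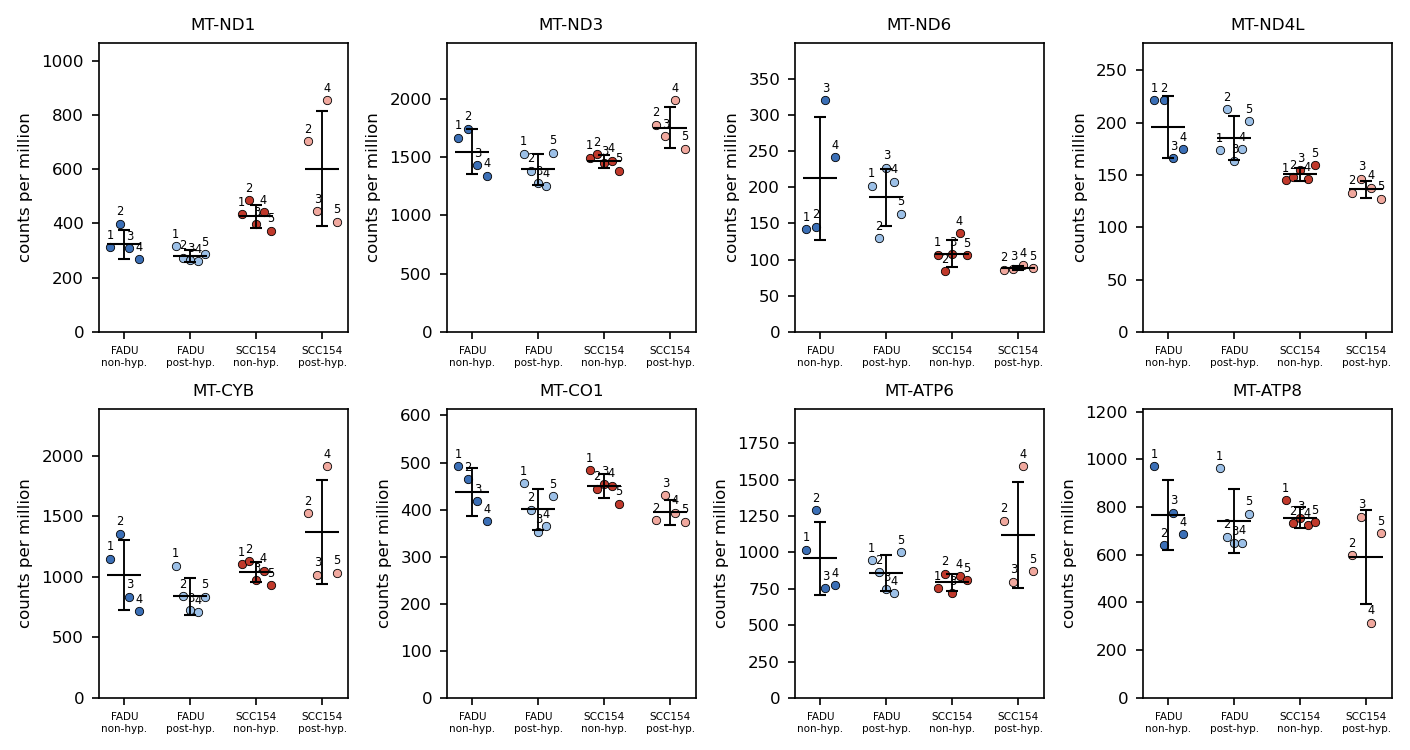
Level of 8 mitochondrial mRNAs in CPM in each library, with points numbered by replicate and bars giving the group mean ± SD. Post-hypoxic SCC154 libraries 2 and 4 are above libraries 3 and 5 for MT-ND1, MT-CYB and MT-ATP6 and below them for MT-ATP8.

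As shares of all counts, the nuclear members made up 1.46%, 1.47%, 0.910% and 1.01% on average in non-hypoxic FADU, post-hypoxic FADU, non-hypoxic SCC154 and post-hypoxic SCC154. In non-hypoxic FADU the shares were 1.09%, 1.48%, 1.58% and 1.68%, and in non-hypoxic SCC154 they were 0.964%, 0.835%, 0.787%, 1.05% and 0.912%. The mitochondrial mRNAs made up 1.12%, 1.05%, 1.13% and 1.27% on average, and from 0.883% to 1.46% over single libraries. The ratio of mitochondrial to nuclear counts, averaged over libraries, was 0.809 and 0.733 in the FADU groups and 1.26 and 1.27 in the SCC154 groups. It ran from 0.521 to 1.17 over FADU libraries and from 1.06 to 1.45 over SCC154 libraries. Wilson intervals (95%) of these shares were at most 0.0360 percentage points wide and cover counting error only. Among other abundant RNAs, ribosomal protein genes made up 6.16% and 4.74% in non-hypoxic FADU and SCC154, and MALAT1 and NEAT1 1.14% and 1.23%. Their part in the subunit difference was not tested.

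**Figure D4:**
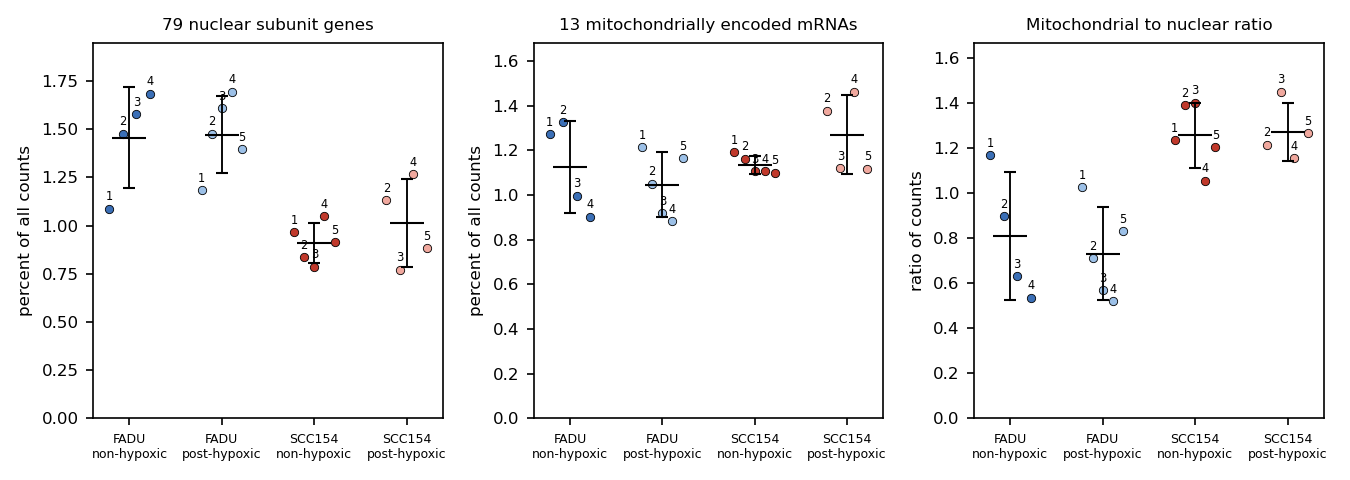
Percent of all counts in nuclear subunit genes and in mitochondrial mRNAs, and the ratio of these, in each library, with points numbered by replicate and bars giving the group mean ± SD. The nuclear share is lower in SCC154 (means of 0.910% and 1.01%) than in FADU (1.46% and 1.47%). The mean mitochondrial share is between 1.05% and 1.27% in all 4 groups, and single libraries run from 0.883% to 1.46%.

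Within SCC154, no member passed between post-hypoxic and non-hypoxic cells in edgeR's test, where 0.757% of all tested genes did. At an unadjusted p under 0.05 there were 13 (14.6%), near the 15.7% of all tested genes in total, and without libraries 2 and 4 there were 2. Of the 13, 12 were higher (13.5% of members) and 1 lower (1.12%), against 7.08% and 8.62% of all tested genes. DESeq2 called 1 and limma voom 0. The median log2 difference of the 89 members was 0.11, with 65 positive, against a median of 0.0 and 6091 positive of 12291 tested genes. Without libraries 2 and 4 the median turned to -0.13, with 17 positive, and 0 passed in edgeR. This choice, made after seeing the data, kept library 3, the lowest of its group for 56 of 76 nuclear members. It left out library 4, the highest for 54, so the sign of that median cannot be read as a post-hypoxic effect. Fewer libraries also make a gene less likely to pass, so these counts do not show that a difference was absent.

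NDUFB1, a small complex I subunit, came closest. It was at 214, 198, 169, 214 and 193 CPM in non-hypoxic SCC154 and at 319.8, 206, 334 and 232.5 CPM in post-hypoxic SCC154. Libraries 2 and 4 were high and library 3 lay within the non-hypoxic range. The log2 difference was 0.47 ± 0.13 (edgeR adjusted p = 0.0880), DESeq2 called it (adjusted p = 0.0418), and without libraries 2 and 4 it was 0.16 (edgeR adjusted p = 0.832). MT-ND1 had a log2 difference of 0.50 (edgeR adjusted p = 0.134), which was 0.01 without those libraries. ATP5MC2 (0.42), MT-ATP6 (0.50), MT-CYB (0.40) and MT-ND3 (0.26) did not pass either, and without those libraries they were at 0.12, 0.083, -0.0058 and 0.16. On the lower side, ATP5MGL (-1.15), MT-ATP8 (-0.35), MT-CO1 (-0.19) and NDUFS1 (-0.19) did not pass.

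MT-ND3 was the only member whose SCC154 groups did not overlap, a separation seen in 5.55% of all tested genes. It was at 1493, 1523, 1446, 1468 and 1381 CPM in non-hypoxic cells and at 1776, 1675, 1984 and 1570 CPM in post-hypoxic cells. The lowest post-hypoxic library was thus just above the highest non-hypoxic library.

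Within FADU, no member passed in edgeR's test, as no gene did (0.0% of those tested). A single member, SDHD, had an unadjusted p under 0.05 (1.12%, against 2.42% of all tested genes), and DESeq2 and limma voom called 0. SDHD was at 23.0 to 27.3 CPM in the 4 non-hypoxic libraries and at 27.9 to 35.7 CPM in the 5 post-hypoxic libraries, without overlap. Its log2 difference was 0.36 ± 0.16 (unadjusted p = 0.0355, edgeR adjusted p = 1.0), and 1.07% of all tested genes had groups that did not overlap. UQCRFS1 (0.46), COX8A (0.20) and ATP5PD (0.11) had the next lowest p on the higher side, and NDUFA5 (-0.19), MT-ND2 (-0.20), MT-ND3 (-0.15) and MT-CYB (-0.27) the lowest on the lower side.

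Same-numbered FADU libraries deviated together from their group means (correlations of 0.178 to 0.447), so the direction was also read within the 4 pairs. Non-hypoxic libraries 2 and 3 correlated slightly more with post-hypoxic libraries 5 and 4 (0.23 and 0.216) than with their own numbers. Of the 13 mitochondrial mRNAs, 10 (76.9%) were lower in the post-hypoxic library of every pair, against 8.41% of all tested genes. Of the nuclear members, 12 of 76 (15.8%) were higher in every pair, against 7.73%. These counts carry no test, and mitochondrial mRNAs share their transcripts.

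No member passed in edgeR's interaction test, which asks whether the post-hypoxic difference differed between the lines and which 0.0163% of all genes passed. Some members passed it with no filter on low counts, or with a replicate block within each line. MT-ND1, for example, then had an edgeR adjusted p of 0.0289 and 0.0282. At an unadjusted p under 0.05 there were 7 (7.87%, against 9.78% of all tested genes), all more positive in SCC154, and DESeq2 and limma voom called 0. Of all tested genes, 4.63% were more positive in SCC154 at that p and 5.15% more negative. The count of members at that p was 2 without post-hypoxic SCC154 libraries 2 and 4, and 14 without the FADU libraries numbered 1. The shares of all tested genes in those fits are not given here, so these counts do not single out the members. Among the lowest p values were those of MT-ND3 (0.41) and MT-ND1 (0.70), each with an edgeR adjusted p of 0.329, and NDUFB1 (0.52, edgeR adjusted p = 0.360). On the negative side the lowest p values were those of NDUFS1 (-0.28), NDUFB7 (-0.82), ATP5MGL (-0.96) and SDHD (-0.39), with edgeR adjusted p from 0.541 to 0.676. Without libraries 2 and 4 of post-hypoxic SCC154 the interaction was 0.31 for MT-ND3, 0.21 for MT-ND1 and 0.21 for NDUFB1. The median interaction of the members was then -0.15, against 0.11 with those libraries. The sign of that median has the same limit as the median difference within SCC154.

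Genes related to the chain were read from lists of assembly factors, mitochondrial DNA and RNA upkeep, regulators and the mitochondrial ribosome. The lists also held subunits outside the symbol patterns, mitochondrial rRNAs and nuclear copies of mitochondrial genes, the last being pseudogenes. Of 201 tested, 133 passed between non-hypoxic lines (106 lower and 27 higher in SCC154) and 128 between post-hypoxic lines (99 lower and 29 higher). These were 66.2% and 63.7%, against 68.9% and 69.7% of all tested genes, so the share that passed in either direction was near the background. By direction, all tested genes split evenly, with 34.5% lower and 34.5% higher in non-hypoxic cells. In post-hypoxic cells these were 34.9% and 34.8%, whereas the lists held more lower than higher genes. In non-hypoxic cells the mitochondrial ribosome had 46 lower and 5 higher of 72, and factors for mitochondrial RNA 12 lower and 0 higher of 20. Assembly factors had 9 lower and 3 higher of 20 for complex I, 2 and 0 of 4 for complex II, 4 and 2 of 6 for complex III, 14 and 5 of 26 for complex IV, and 3 and 0 of 7 for ATP synthase. Factors for mitochondrial DNA had 8 lower and 3 higher of 19, nuclear regulators 5 and 5 of 14, and subunits outside the symbol patterns 3 and 2 of 5. Of the mitochondrial rRNAs, MT-RNR2 was higher (0.38, edgeR adjusted p = 0.0331), and of 6 nuclear copies of mitochondrial genes 1 was higher.

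CYCS, which encodes the cytochrome c that carries electrons from complex III to IV, was at 388 ± 12.6 CPM (SD, n = 4) in non-hypoxic FADU and 105 ± 14.0 CPM (SD, n = 5) in non-hypoxic SCC154. POLG, the polymerase of mitochondrial DNA, was at 178 ± 18.3 and 32.5 ± 3.97 CPM, a log2 difference of -2.46. TFAM, which packages and helps transcribe that DNA, was lower by -0.70. LRPPRC and its partner in mRNA stability, SLIRP, were lower by -0.72 and -1.51. Among regulators, PPARGC1B, a coactivator of respiratory genes, was lower (-2.83), GABPB1 was lower (-1.55) while its partner GABPA was higher (1.13), and NRF1 did not pass (-0.32, edgeR adjusted p = 0.166). COX19 (1.55) and TTC19 (1.04), assembly factors of complexes IV and III, were higher in SCC154, and COA7 (-2.25), UQCC3 (-1.90) and ATPAF1 (-1.72) were lower.

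Some assembly factors and alternative subunits were near zero in 1 line. SDHAF3, which helps insert iron-sulfur clusters into SDHB, had 132 and 206 counts in non-hypoxic and post-hypoxic FADU and 0 in both SCC154 groups. Against a floor of 3 counts over the group it was at least 53.8-fold and 52.9-fold lower in SCC154. COX6A2, known as the muscle form of its subunit, had 0 counts in FADU and 30 and 36 in SCC154, at least 8.17-fold and 15.6-fold higher. COX6B2, known as the testis form, had 4 and 7 counts in FADU and 281 and 235 in SCC154.

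Between post-hypoxic and non-hypoxic cells, 1 of the 201 passed in SCC154 and 0 in FADU, by edgeR, against 0.757% and 0.0% of all tested genes. At an unadjusted p under 0.05 there were 35 (17.4%) and 3 (1.49%), against 15.7% and 2.42% of all tested genes. DESeq2 called 2 and 0, and limma voom 1 and 0. The SCC154 gene was MTND5P11, a nuclear copy of MT-ND5, at 13.7 ± 6.98 CPM (SD, n = 5) in non-hypoxic and 2.88 ± 0.630 CPM (SD, n = 4) in post-hypoxic cells (log2 difference -2.23, edgeR adjusted p = 0.0148). Without libraries 2 and 4 none passed.

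Position on the chromosome was compared with the line difference, since the lines also differed at neighbouring genes. For each nuclear member, the median difference of up to 10 tested genes on each side was taken. Across the 76 genes, Pearson's r between a member and its neighbours was 0.65 in non-hypoxic and 0.74 in post-hypoxic cells, a description over genes that are not independent and that can share neighbours. The member lay below its neighbours' median for 70 of 76 genes in non-hypoxic and 67 in post-hypoxic cells, and the neighbours' medians themselves centred on -0.05.

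SDHA, at the tip of chromosome 5, had 11 neighbours, of which 10 were higher in SCC154, with a median of 1.26 beside its own 1.22. NDUFS6, on the same chromosome arm, had 15 of 20 neighbours higher, with a median of 1.19 against its own 0.37. SDHD had 16 of 20 neighbours lower, with a median of -1.51 against -1.91. NDUFS8 and NDUFV1, close together on chromosome 11, had neighbours at -1.03 and -0.83, against -1.73 and -1.72. COX5A differed from its surroundings, with 7 neighbours higher, 6 lower and a median of 0.03 against its own -2.02. The part of chromosomal position in these differences was not tested.

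**Figure D5:**
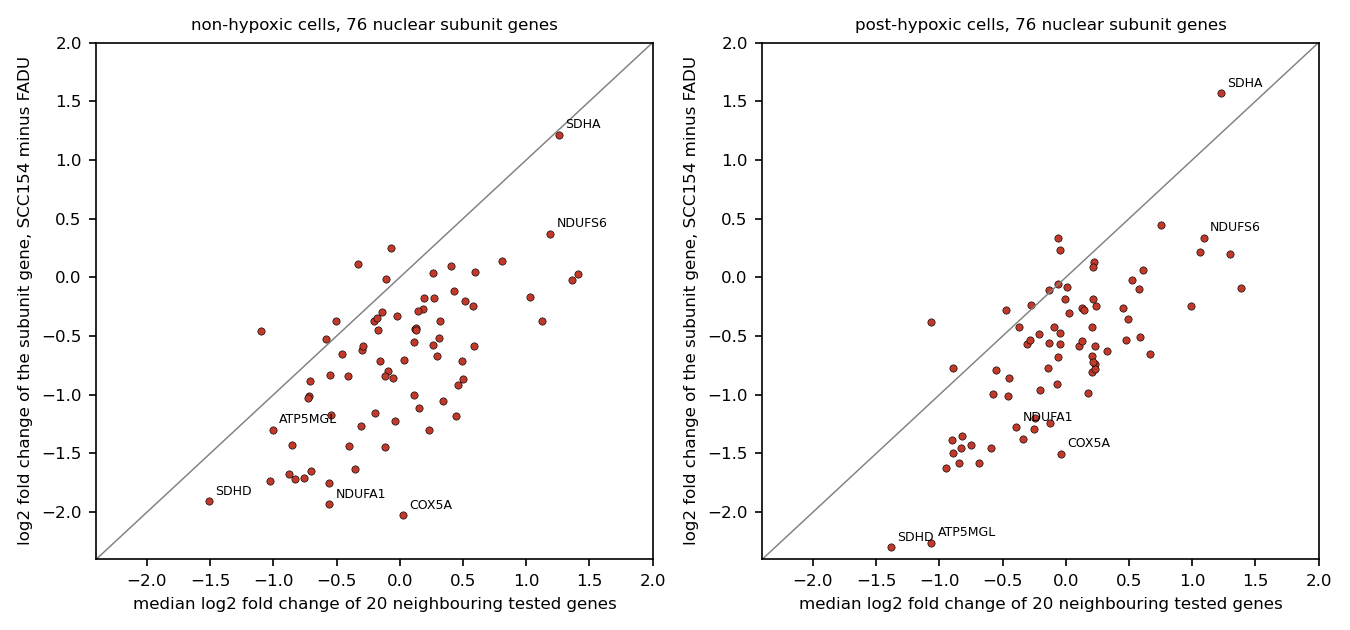
Log2 fold change of each nuclear subunit gene, SCC154 minus FADU, against the median log2 fold change of its neighbouring tested genes (up to 10 on each side), in non-hypoxic and post-hypoxic cells. Most points lie below the line of equality (70 and 67 of 76); SDHA and NDUFS6 have neighbours higher in SCC154, SDHD has neighbours lower, and COX5A lies far below neighbours centred near 0.

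Some counts may be shared with other rows. In 16 of 79 nuclear members another exon annotated by GENCODE overlapped the last 500 bases of the gene, on the same strand in 8, and for 4 (NDUFB4, SDHA, COX6C and NDUFV2) pseudogene rows held more than 5% of the counts. MT-ATP8, MT-ATP6 and MT-CO3, and likewise MT-ND4L and MT-ND4, adjoin or overlap on one transcript. How reads that match several genes were counted is not given in the sources used here.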

How the data were processed

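The authors deposited 1 table of raw counts per gene symbol for 18 libraries, made from QuantSeq 3′ mRNA-seq. The submitters' processing notes name the build hg38 and the tools HISAT2 (2.2.1), featureCounts (1.5.1), UMI-tools (1.1.5), Trimmomatic (0.39), FastQC (0.11.9) and, without a version, DESeq2. No source used here gives the annotation, the strand setting or the treatment of multiply matching reads.

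Groups came from the sample titles. The whole table was fitted with edgeR 4.0.16 (R 4.3.3; TMM, filterByExpr, quasi-likelihood test, 4 group means, 14 residual degrees of freedom, common coefficient of biological variation 0.148), and p-values were Benjamini-Hochberg adjusted over 12291 genes, threshold 0.05. CPM use TMM-scaled library sizes. DESeq2 1.42.0, limma 3.58.1, other factors, no filter, replicate blocks and leaving out each library were alternatives. The scripts were tested on simulated data. Replicate pairs of 1 group differed by more than sampling noise (chi-square per degree of freedom 1.80 to 12.0), so each library counted once.

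The members and gene lists were chosen with earlier results of these data known. Named genes were, per line contrast, the 10 highest and 10 lowest members that passed with at least 10 CPM in 1 group; per other contrast, those that passed or else the 4 with the lowest p in each direction; and always the mitochondrial mRNAs and ATP5MC1 to ATP5MC3. Other genes were named to fill out complexes or lists after their values were seen. Leaving out FADU libraries 1, or post-hypoxic SCC154 libraries 2 and 4, was chosen after seeing the data.

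Same-numbered non-hypoxic and post-hypoxic libraries were checked for shared deviations from their group means. In FADU all 4 correlations exceeded 0.1 (0.447, 0.178, 0.208 and 0.438), and the replicate block changed no member's call there. Promoters came from RefSeq (GRCh38.p14). Pseudogene rows matching the symbol patterns were left out, except where SDHA copies are named; nuclear copies of mitochondrial genes were a related list. Values of 1 member are not reported here, though it is in the counts.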

Additional observations from a re-analysis of the deposited data

Results flagged for a closer look

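In groups of 4 or 5 libraries, single libraries that lay far outside the rest of their group were sought for 36 named members and the summed shares. In 152 groups tested, 11 had such a library, and chance alone gives about 1 in 20 groups.

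Among FADU libraries numbered 1, ATP5MC1 was low in post-hypoxic cells (286 CPM, others 305 to 312), ATP5MC2 low in non-hypoxic cells (189 CPM, others 255 to 266) and NDUFA1 low in non-hypoxic cells (375.0 CPM, others 610.3 to 658). In post-hypoxic FADU library 1, MT-ND2 was high (867 CPM, others 611 to 678.0). NDUFS8 was high in FADU library 2, both non-hypoxic (407 CPM, others 257.7 to 283) and post-hypoxic (344 CPM, others 257 to 278).

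In non-hypoxic SCC154, COX5A was high in library 4 (69.0 CPM, others 20.0 to 31.8), MT-ATP8 and MT-ND5 were high in library 1 (829.9 CPM, others 724 to 753, and 877.5 CPM, others 632 to 702), and NDUFS1 was high in library 3 (152 CPM, others 126 to 131). NDUFS1 was also high in post-hypoxic SCC154 library 3 (133.0 CPM, others 109.7 to 113).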

How the results depend on the processing

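The counts of members that differed between the lines stayed within 1.5 times of 56 under every alternative run: 54 to 60 in non-hypoxic and 51 to 63 in post-hypoxic cells, 52 to 58 and 48 to 59 when 1 library was left out, and 58 and 63 with a replicate block shared across the lines. A block within each line cannot give a line difference. Of the related lists, 119 to 136 and 120 to 132 genes passed when 1 library was left out, against 133 and 128.

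The count of 0 members between post-hypoxic and non-hypoxic SCC154 became 6 with no filter on low counts, 1 with DESeq2, 16 with a replicate block within each line (15 higher, 1 lower; NDUFB1 and MT-ND1 among the higher, MT-ATP8 the lower) and 0 with the shared block, and ran from 0 to 3 when 1 library was left out (3 without post-hypoxic library 5, 1 without library 3). The SCC154 numbers do not pair the libraries by the rule used, since not all same-number correlations exceeded 0.1 (0.0292, 0.292, 0.398 and 0.144). Non-hypoxic SCC154 libraries 3, 4 and 5 nonetheless correlated most with their own numbers, and library 2 with post-hypoxic library 3 (0.0575). Pairing in SCC154 is thus unsettled. The interaction gave 3 members with no filter, 7 with the block within each line and 0 to 0 when 1 library was left out. In FADU the count was 0 under every alternative, 0 to 0 when 1 library was left out. Over all 12291 tested genes, the SCC154 count of 93 ran from 10 without libraries 2 and 4 to 1052 with the block within each line. The block thus raised the count of all genes as well as that of the members, and of the related lists given below. The counts with no filter and for the interaction are given without those of all genes, so they do not single out the members. The cause was not tested.

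For the related lists, the SCC154 count of 1 became 3 with no filter, 2 with DESeq2, 17 with the block within each line, 0 without libraries 2 and 4, 2 without FADU libraries 1, and 0 to 3 when 1 library was left out; the interaction count of 0 became 3 with the block, and FADU stayed at 0, and both were 0 to 0 when 1 library was left out. Among values that passed, MT-ATP6 between post-hypoxic lines reversed, to -0.023 without SCC154 libraries 2 and 4, against 0.39. Without these, MT-CYB, MT-ND2, MT-ND4 and MT-CO3, among others that had not passed, also turned negative between post-hypoxic and non-hypoxic SCC154 (-0.0058, -0.11, -0.12 and -0.045).

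With 1 library left out, mean mitochondrial shares ran from 1.06% to 1.20%, 1.00% to 1.09%, 1.12% to 1.14% and 1.21% to 1.32% in non-hypoxic FADU, post-hypoxic FADU, non-hypoxic SCC154 and post-hypoxic SCC154, and nuclear shares from 1.38% to 1.58%, 1.42% to 1.54%, 0.875% to 0.940% and 0.929% to 1.09%. NDUFA7, at 0.58 to 1.2 CPM, was too low to test.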
